A study of Drosophila melanogaster with 24 samples.

Results

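The cytoplasmic ribosomal protein genes of Drosophila melanogaster were examined in the abdominal carcass of adult females, over larval diet, evolutionary regime and population. They were taken as all genes whose FlyBase symbol starts with RpL or RpS followed by a number or by P, together with sta, and without the kinases of RpS6. The rule found 93 of 14220 genes, 54 of the large and 39 of the small ribosomal subunit, and all 93 were present in the deposited files. The rule itself uses no measured value, but it was set with earlier results of these data known.

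The 24 RNA-seq libraries came from mated females about 4 days old, each from 1 pool of 10 carcasses. A carcass was the abdominal fat body on its body wall, plus whatever hemolymph, oenocytes, neurons and pieces of Malpighian tubule stuck to it, once gonads and gut had been taken out. There were 6 Control populations (C1 to C6) and 6 Selected populations (S1 to S6), and each population gave 1 library from larvae raised on standard food and 1 from larvae raised on poor food. The poor food held 0.25 of the yeast, sugars and cornmeal of the standard food. After emergence every fly, whatever its group, ate standard food from day 1, so diet here means larval food only. The 4 groups are therefore Control on standard, Control on poor, Selected on standard and Selected on poor diet, with 6 populations in each. The labels disagree among themselves: for each of the 24 libraries the title names the opposite diet to the characteristics and another population, and for 12 it also names the opposite regime. Every group and direction below follows the characteristics of a library, not its title.

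A ribosome is built from ribosomal RNA and a fixed set of proteins, most of which it holds as a single copy each. Cells keep the production of these proteins in balance, and in flies their gene dosage is limiting: a heterozygous loss of many of them gives the Minute phenotype of slow development and thin bristles. Their messenger RNAs carry terminal oligopyrimidine tracts through which nutrient signalling by the target of rapamycin (TOR) kinase sets their translation, and Myc drives transcription of ribosome genes in the fly. The fly fat body is an organ in which TOR senses amino acid supply.

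The whole series sets the frame for these genes. Total estimated counts were 29.4 to 31.5 M per library, except for the library of S2 on standard diet with 22.4 M, in which 9.3% of counts came from ribosomal RNA genes. Fat body markers were abundant, with a summed level of 24079 to 146865 CPM (counts scaled to the library total, here with the TMM method). Markers of tissues that the dissection took out were present to differing degrees: the summed CPM ranged from 307 to 3433 for 31 germline and oocyte genes, from 3.55 to 1953 for eggshell and follicle cell genes, and from 695 to 24709 for midgut digestive enzymes. Of 14 male reproductive genes found in the files, only 1 reached a mean of 1 CPM, and SP, Mst84Da, Mst84Db and nht had under 1 count in every library. In pools of tissue, fewer cells of a type cannot be told apart from less RNA per cell.

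Ribosomal protein genes took a large part of the transcriptome. They held 13.3% of all counts on average, from 11% in C3 on poor diet to 15.3% in C4 on standard diet, and 23.5 to 30.3% of TPM, the length-scaled unit of the deposited tables. Of the 100 genes with the highest mean TPM, 65 were ribosomal protein genes. Without ribosomal RNA genes in the denominator the mean share of counts was 13.6%.

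Most of them were expressed within a narrow band. A filter on low counts kept 87 of the 93 genes, and 80 of these had a median of at least 1000 TPM. The highest level in TPM was that of RpL41, which encodes a tiny basic peptide, with a median of 13860 TPM and a range of 11670 to 17000 TPM over 24 libraries. TPM of a transcript this short rests strongly on the effective length that the quantification assumes. Next in level were the stalk protein RpLP1 (5880 TPM), RpL5 (5525 TPM), which binds a small ribosomal RNA of the large subunit together with RpL11, RpLP2 (5285 TPM) and RpS25 (5280 TPM).

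The genes with special roles lay in the same band. RpLP0, RpLP1 and RpLP2 form the stalk that calls elongation factors to the ribosome; on the CPM scale, which is not scaled by length, RpLP0 had a median of 2272, RpLP1 of 2668 and RpLP2 of 2292. RpL40 and RpS27A are made as fusions with ubiquitin and had medians of 1317 and 2001 CPM. RpS6, the substrate of S6 kinase downstream of TOR, had a median of 2162 CPM, from 1711 in C3 on poor diet to 2646 in S6 on poor diet. The gene sta encodes the small subunit protein known in mammals as the laminin receptor, and its median was 3342 CPM.

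The remaining 7 of the 87 tested genes had medians below 1000 TPM, and each of them is the lesser copy of a paralogue pair. They were RpL24-like (409 TPM), RpL34a (366 TPM), RpL7-like (126 TPM), RpS5b (98.8 TPM), RpS15Ab (57.1 TPM), RpLP0-like (55.8 TPM) and RpS19b (0.86 TPM). The 6 genes that did not pass the filter, RpL10Aa, RpL22-like, RpL37-2, RpS10a, RpS28-like and RpS28a, were near 0 in all libraries.

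**Figure D1:**
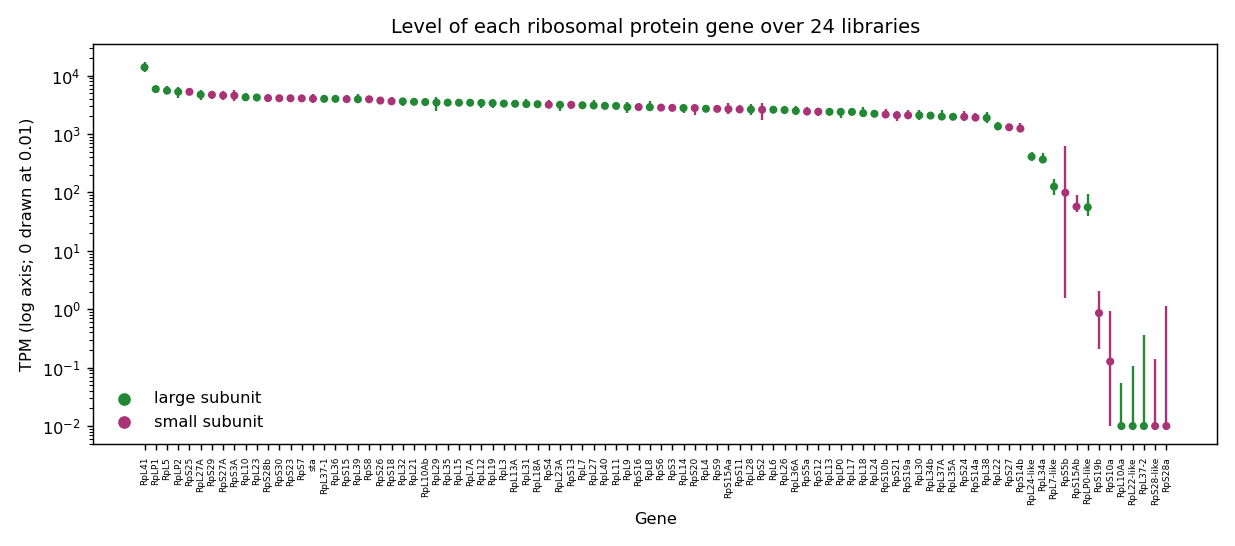
Median TPM (points) and range over 24 libraries (lines) of 92 ribosomal protein genes, on a log axis, ordered by median and coloured by subunit. RpL41 stands highest at 13860 TPM, most genes lie at or above 1000 TPM, and the lesser copies of paralogue families make up the tail on the right, where values of 0 are drawn at 0.01.

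The genes lie on all major chromosome arms, with 19 on 2L, 21 on 2R, 14 on 3L, 23 on 3R, 15 on X and 1 on chromosome 4 (build BDGP6.54). Many host small nucleolar RNAs (snoRNAs), guides for ribosomal RNA modification that are spliced out of introns. A snoRNA gene lay inside 29 of the 93 genes (31.2%), against 84 of 13895 protein coding genes (0.605%), and these 29 hold 76 of the 269 annotated snoRNA genes. RpS5a (X 17143588-17148264) has the most, with 14, followed by RpS7 with 7. A protein coding gene on the opposite strand overlaps 22 of the 93. The strand setting of the quantification was not stated, and reads of such pairs may be mixed.

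Between libraries the ribosomal protein genes moved as a block. The median SD of log2 CPM over 24 libraries was 0.188 for the 87 tested genes, against 0.333 for all 10184 tested genes and 0.261 for the 298 tested genes, ribosomal protein genes among them, whose mean CPM reached at least the 10th percentile of the set. When each gene was set against the median movement of the 87 genes, the SD of its distance from that movement had a median of only 0.063. The same distance was 0.137 for 11 translation elongation and release factors, 0.158 for 29 initiation factors, 0.360 for 46 genes of ribosome biogenesis and RNA polymerase I, and 0.357 for all 9176 genes with a mean of at least 1 CPM. In 73 of the 87 genes the distance had an SD below 0.1, and in 84 it was smaller than the gene's own SD. These are descriptions over libraries that share their depth and scaling, and the 87 genes set the movement they are measured against. The sets compared by this distance were not matched in level to the 87 genes.

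The genes closest to the common movement were RpL19 (distance SD 0.032), RpS7 (0.034) and RpL13A (0.035), which come from both subunits. Those farthest from it were RpS5b (2.74), RpS19b (0.66), RpLP0-like (0.26), RpS15Ab (0.25) and RpL7-like (0.23), all lesser copies of a paralogue pair. All of these also had medians below 1000 TPM. RpS19b reached at most 1.1 CPM, where counting error adds to its distance. RpL38 and RpS2 (both 0.14) followed. With RpS5b and RpS19b left out, the first principal component over the other 85 genes held 82.2% of their variance. Over all 87 genes it held 69.1%, but genes were not scaled and RpS5b had an SD of 2.72 against a median of 0.188. The value over all 87 is therefore weighted towards RpS5b and does not measure the common movement.

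**Figure D2:**
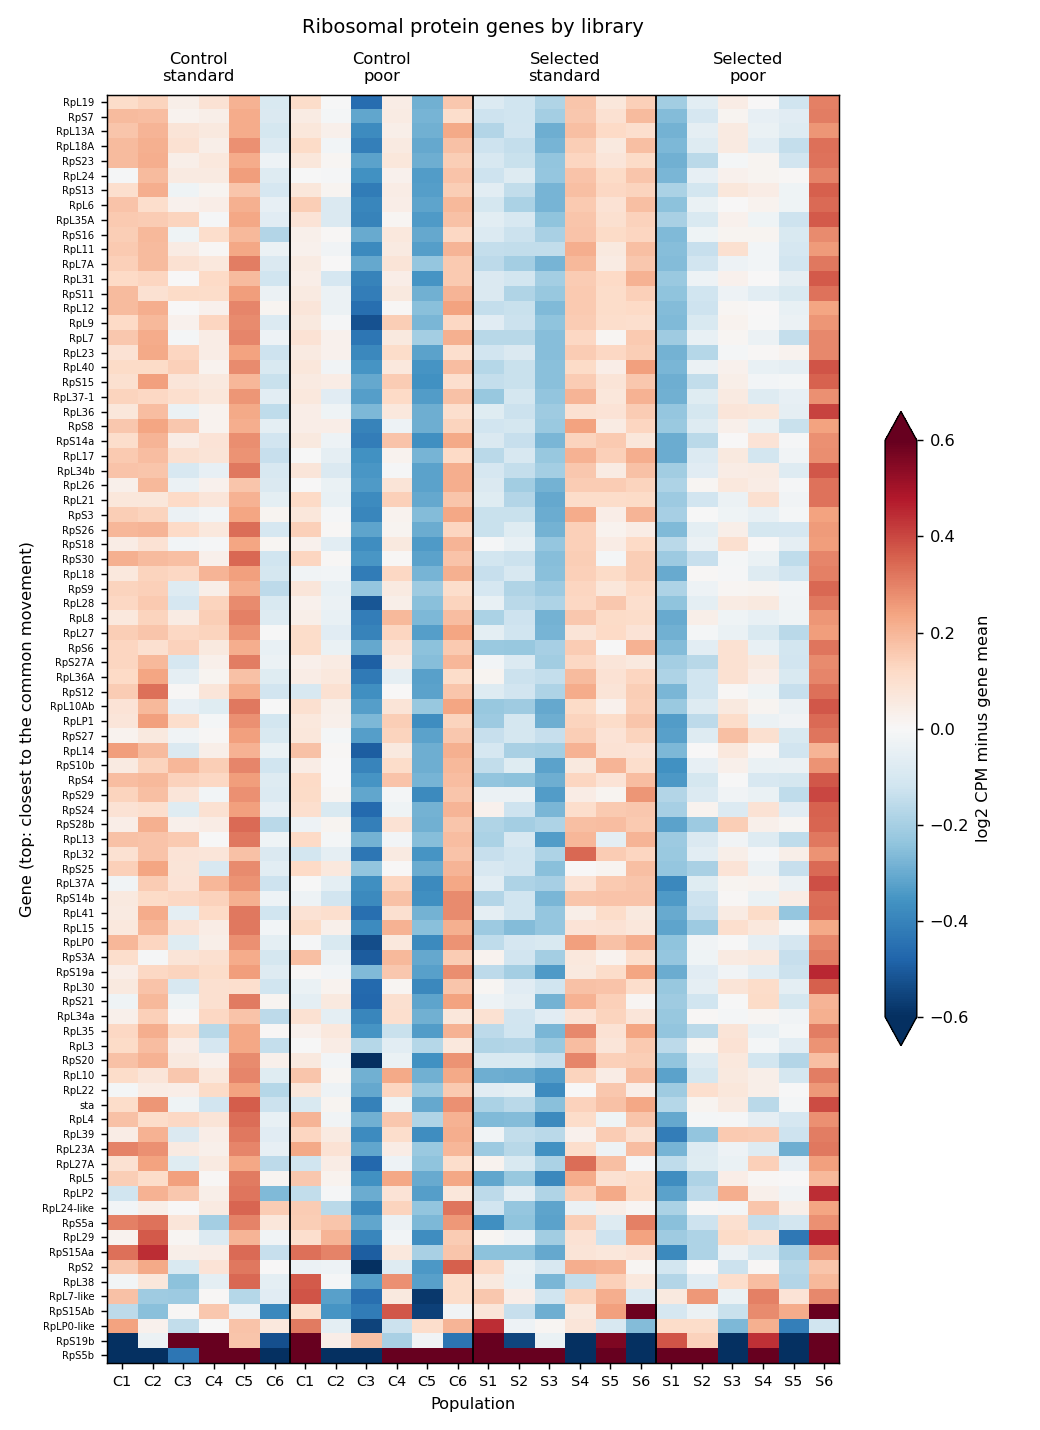
Log2 CPM minus the mean of the gene over 24 libraries (colour, cut at 0.6 either way) for 86 tested ribosomal protein genes, ordered from the closest to the common movement (RpL19, top) to the farthest (RpS5b, bottom). Columns are libraries by group and population, and most columns carry 1 colour from top to bottom, with C3 on poor diet the lowest and S6 on poor diet the highest.

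The block was highest in S6 on poor diet, where 86 of 87 genes lay above their own mean and the median gene stood 0.31 above it on the log2 scale. It was lowest in C3 on poor diet, where 1 of 87 lay above and the median gene stood at -0.38. Both extremes are poor-diet libraries, and populations of both regimes appear on either side.

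The first comparison asked which ribosomal protein genes differ in the adult carcass after a poor larval diet, within population. None of the 87 was called higher or lower on poor diet at an adjusted p below 0.05 (edgeR quasi-likelihood F test with population as a block, Benjamini-Hochberg over 10184 genes), against 1.13% of all tested genes called in either direction. At an unadjusted p below 0.05 there were 0 of 87, against 17.6% of all genes, and DESeq2 called 0 of 87 as well. Values were nevertheless mostly small and negative: 80 of 87 lay below 0, with a median log2 fold change of -0.08 against -0.03 over all tested genes. The median was -0.08 for each subunit, 51 large and 36 small. Without C5 the median over the 87 genes was -0.03 and without C3 -0.04.

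Markers of the tissue itself moved between the same libraries. In each of the 12 populations the poor-diet library had the smaller summed CPM of 16 adult fat body genes, from 55584 to 146865 CPM on standard and from 24079 to 91629 CPM on poor diet, in ranges that overlap. The test called 4 of these 16 genes lower and 0 higher, and the list had a median of -0.05. Single genes went both ways, with 9 negative and 7 positive values, from -1.50 to 0.66. The score of the list, its mean log2 CPM, fell from standard to poor diet in 9 populations and rose in 3. The sum therefore does not describe all genes of the list. Called lower were the yolk protein genes Yp1 (-1.32, edgeR adjusted p = 0.0428), Yp2 (-1.50, adjusted p = 0.048) and Yp3 (-1.22, adjusted p = 0.0389) and the female fat body gene fit (-0.87, adjusted p = 0.0439). Of the 12 fits that left out a population, each of these 4 genes passed in 2. Neuron markers had positive diet values in 12 of 12 genes with a median of 0.34, and 0 were called. Malpighian tubule markers had a median of -0.50, with 9 negative and 6 positive values. Positive values were also found in 8 of 8 oenocyte, 14 of 16 hemocyte and 16 of 22 body wall muscle markers. Of these 4 lists 0 genes were called. Ribosomal RNA genes took a larger percent of counts in the poor-diet library of 11 of 12 populations, all but S2. The part of these measures in the diet values of ribosomal protein genes was not tested.

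The share of counts in ribosomal protein genes ran from 12.3 through a median of 14 to 15.3% in Control on standard diet, and from 11 through 12.9 to 14.1% in Control on poor diet. In Selected populations it ran from 12.1 through 12.8 to 14.6% on standard diet and from 12.2 through 13 to 15.3% on poor diet. The ranges of the 4 groups overlap, and 5 of 12 populations, 1 Control and 4 Selected, had the larger share on poor diet.

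RpS2 (FBgn0004867, 2L 9896265-9897552), a small subunit protein at the entry of the messenger RNA channel, had the largest negative value. In Control populations its level ran from 1699 through a median of 1967 to 2255 CPM on standard diet and from 1059 through 1741 to 2317 CPM on poor diet. In Selected populations it ran from 1691 through 1897 to 2102 CPM on standard and from 1611 through 1745 to 2027 CPM on poor diet. The groups overlap, the lowest value being that of C3 on poor diet, and 3 of 12 populations had more RpS2 on poor diet. The log2 fold change was -0.19 ± 0.09 (SE) (edgeR adjusted p = 0.284).

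The next largest negative values did not pass either. RpS20 had -0.17 ± 0.08 (edgeR adjusted p = 0.295), with means of 1175 ± 117 CPM on standard and 1049 ± 165 CPM on poor diet (SD, 12 populations). The stalk base RpLP0 had -0.14, RpS12, which in flies is needed for the sensing of ribosomal protein loss in cell competition, had -0.12, and RpL17 had -0.12. The other role genes lay nearer to 0, with RpL40 at -0.07, RpS27A at -0.08, RpS6 at -0.05, sta at -0.07, RpLP1 at -0.06 and RpLP2 at -0.07.

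At the other end, the 5 highest values were close to 0 and their sign depended on single populations. They were RpS19b (0.05 ± 0.37), RpL38 (0.03), RpL7-like (0.02), RpS15Ab (0.02) and RpL24-like (0.01), and each turned negative when 1 or another population was left out. RpL38, whose loss in mice alters skeletal patterning, ran from 392 to 637 CPM, and both extremes came from Control populations on poor diet (C3 and C1).

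The precision of this comparison can be read from the intervals. For 85 of 87 genes the 95% interval of the diet effect lay within a change of 1.5-fold either way (0.58 on the log2 scale), and the widest of these, that of RpS2, reached a fold of 1.3. The exceptions were RpS19b, with at most 1.1 CPM in any library, and RpS5b, whose interval ran from -2.29 to 2.30.

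**Figure D3:**
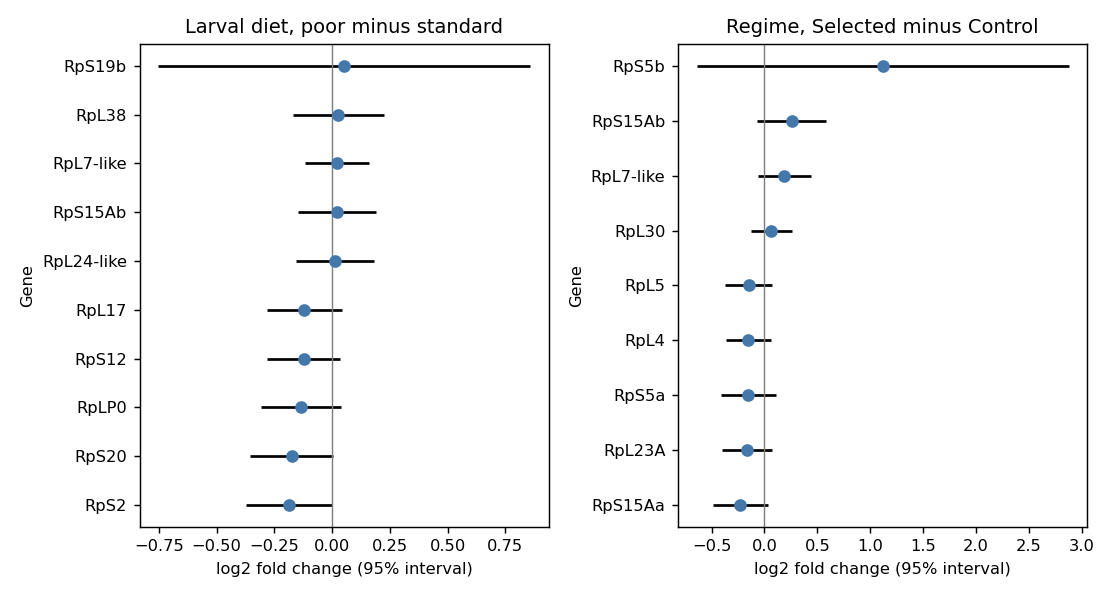
Log2 fold change with its 95% interval for genes at the upper and lower end of the values by larval diet (left) and by regime (right); the horizontal scales of the panels differ. No gene of the set passed in either comparison; RpS2 touches 0 at its upper bound, and RpS5b has by far the widest interval by regime, from -0.64 to 2.88.

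Within some populations most of the 87 genes moved together between diets, and the direction of this movement differed between populations. In C5 the median gene had a log2 change of -0.56, or 0.678 of its level on standard diet, with 86 of 87 genes lower on poor diet. In C3 the median was -0.42 and all 87 genes were lower. In C6 the median was 0.25 and all 87 were higher.

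S3 had a higher median (0.28), with 83 of 87 genes higher on poor diet, and in the remaining populations the median lay between those of C3 and C6. C1 (-0.05), C2 (-0.19), S1 (-0.14), S4 (-0.15) and S5 (-0.17) had negative medians, and C4 (0.02), S2 (0.05) and S6 (0.16) positive ones. In C4, C1 and S2 the difference was small and mixed: 56 genes were higher and 31 lower in C4, 25 and 62 in C1, and 67 and 20 in S2. In S6 86 of 87 genes were higher on poor diet, whereas in S5 86 and in S1 83 were lower. These directions are those of CPM after TMM scaling, and in S4 and C4 the share of counts went the other way. In S4 the share was 13% on standard and 13.4% on poor diet, although 76 of 87 genes were lower. In C4 it was 15.3% on standard and 13.9% on poor diet, although 56 genes were higher. In the other populations the share moved in the direction of the median. Each population has 1 library per diet, so a population's response and the difference between 2 single pools cannot be told apart. No gene of the set moved the same way in all 12 populations, and at most 9 of 12 did so for any of them. The share over all tested genes is not given here.

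**Figure D4:**
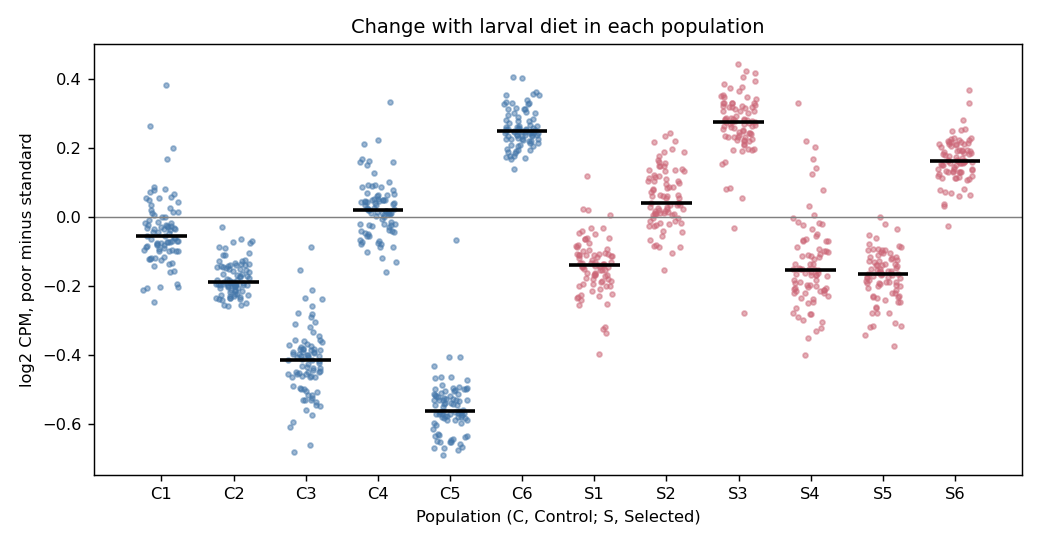
Change in log2 CPM from standard to poor larval diet in each of 12 populations, 1 point per gene for 85 tested ribosomal protein genes (RpS5b and RpS19b left out), with the median as a bar. C5 and C3 lie wholly below 0, C6 wholly above, and Selected populations lie on both sides, with S3 highest.

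The second comparison asked about ribosomal protein genes in Selected against Control populations, both diets combined. Of 87 genes 0 were called (edgeR quasi-likelihood F test on 6 against 6 population sums), against 0.0295% of all tested genes, and 0 of 87 had an unadjusted p below 0.05, against 10.7% of all genes. DESeq2 called 0 of 87 too. The median was -0.04 against 0.01 over all genes, and -0.04 in each subunit. Of the 87 values 68 were negative, which are not 68 separate observations in genes that move as a block. With the germline and midgut marker scores as covariates the median was 0.02 and 57 of 87 values were positive, so the sign of this small median rests on that choice. In that fit counts were summed over both libraries of a population but log2 scores were averaged. The scores therefore need not match the sums. Without S1 or without C1 the median was -0.01, while it was -0.09 without S6, -0.08 without C3 and -0.07 without S4. In population means the ranges of both regimes overlapped for each of the 87 genes. The share over all tested genes is not given here, so this cannot be read as a trait of the set.

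RpS15Aa (FBgn0010198, X 13335637-13337705), a protein of the small subunit body, had the largest negative value. It ran from 1221 through a median of 1536 to 1829 CPM in Control and from 1087 through 1272 to 1422 CPM in Selected populations on standard diet. On poor diet it ran from 954 through 1456 to 1690 CPM in Control and from 1033 through 1215 to 1614 CPM in Selected populations. The medians were lower in Selected on both diets while the ranges overlapped. The log2 fold change was -0.23 ± 0.12 (edgeR adjusted p = 0.533), with population means of 1466 ± 216 CPM in Control and 1264 ± 154 CPM in Selected (SD, n = 6 each).

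Next came RpL23A (-0.17 ± 0.11), at the exit of the tunnel through which the new protein leaves the ribosome, RpS5a (-0.15 ± 0.12), RpL4 (-0.15 ± 0.10), which lines that tunnel, and RpL5 (-0.15 ± 0.10). RpL4 averaged 2910 ± 367 CPM in Selected and 3208 ± 188 CPM in Control populations, and RpL5 4269 ± 582 and 4687 ± 221 CPM. Their edgeR adjusted p-values were 0.628 and 0.655.

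The 3 largest positive values belonged to lesser copies: RpS5b (1.12 ± 0.81, edgeR adjusted p = 0.676), RpS15Ab (0.26 ± 0.15, adjusted p = 0.58) and RpL7-like (0.19 ± 0.12, adjusted p = 0.619). Without C4 the RpS5b value was 2.08. RpL30 had 0.06 and averaged 705 ± 64.4 CPM in Selected and 669 ± 61 CPM in Control populations. For 85 of 87 genes the 95% interval of the regime effect lay within 1.5-fold either way, again with RpS5b and RpS19b as the exceptions.

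Taken by diet, regime values differed in sign. On standard diet the median over the 87 genes was -0.09, with 6 positive and 81 negative, and on poor diet it was 0.04, with 74 positive and 13 negative. No gene was called on either diet, against 0.00982% and 0.0589% of all tested genes. On standard diet 2 genes had an unadjusted p below 0.05, RpL24-like (-0.20 ± 0.09, edgeR adjusted p = 0.758) and RpS15Aa (-0.27 ± 0.12, adjusted p = 0.771), and both were lower in Selected. That is 2 of 87 against 6.38% of all genes, and on poor diet it was 0 of 87 against 9.91%. Both comparisons use the same populations.

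The third comparison asked whether the response to larval diet differs between regimes. The interaction called 0 of 87 genes, as it called 0% of all tested genes, and 0 of 87 had an unadjusted p below 0.05, against 1.52% of all genes. DESeq2 called 1 gene in all and none of the 87. The values shared a sign: 84 of 87 were positive, with a median of 0.16 against -0.02 over all genes, and the median SE of a single gene was 0.15. Since the 87 genes move as a block within a library, the 84 are not 84 separate observations.

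The diet medians within each regime stand beside this value. In Control populations the median was -0.15, with 84 of 87 negative, and in Selected populations 0.02, with 66 of 87 positive. No gene was called in either regime. Of all tested genes 0% were called within Control, and 0.628% within Selected (0.422% higher and 0.206% lower). At an unadjusted p below 0.05 there were 0 of 87 in either regime, against 3.86% of all genes within Control and 10.6% within Selected. Leaving out C5 brought the median interaction to 0.08, leaving out C3 to 0.11 and leaving out S3 to 0.10, while leaving out C6 raised it to 0.25. With the germline and midgut marker scores as covariates the median interaction was 0.26 and 86 of 87 values were positive. The largest interaction value was that of RpL24-like (0.27 ± 0.14, edgeR adjusted p = 1), at -0.12 ± 0.12 in Control and 0.17 ± 0.07 in Selected populations. For 84 of 87 genes the interval of the interaction lay within 1.5-fold either way. The exceptions were RpS5b, RpS19b and sta, the last reaching a fold of 1.51.

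Paralogue families show which copy the carcass used. There are 13 families with more than 1 gene in the set. In 6 of their lesser copies almost nothing was detected: RpL10Aa and RpS28-like reached 1 count in 1 library each, RpL22-like in 6 libraries with at most 3 counts, RpS28a in 8 with at most 6, RpL37-2 in 9 with at most 3, and RpS10a in 22 with at most 12. In flies RpL22-like and RpS10a are known for expression in the germline. Their partners RpL10Ab, RpS28b, RpL22, RpL37-1 and RpS10b were at full level, with RpL10Ab for example at a median of 3532 TPM.

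RpS14a and RpS14b are neighbours on X (7933742-7934677 and 7934898-7935792) that encode the same protein, and they shared the family most evenly. RpS14b held 35.9% of the counts of the pair on average and 34 to 37.5% in single libraries, or 39.3% by TPM. The group means of this share were 36, 35.7, 36.1 and 35.9% for Control on standard, Control on poor, Selected on standard and Selected on poor diet, which is within the spread of about 1 percentage point in each. Copies this alike share reads in the quantification, so the split itself is uncertain. RpL34a held 15.3% of its pair, from 13.9 to 17%, with group means of 15.1, 15.2, 15.6 and 15.1%.

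A trio of lesser copies resembles factors that in yeast belong to ribosome assembly and not to the finished ribosome: RpL24-like (yeast Rlp24), RpL7-like (yeast Rlp7) and RpLP0-like (yeast Mrt4). RpL24-like held 15.2% of the counts of its pair with RpL24. Its share ran from 13.8 through a median of 15.1 to 17.3% in Control on standard and from 13.8 through 16.1 to 16.6% in Control on poor diet. In Selected populations it ran from 13.4 through 14.1 to 15.2% on standard and from 14.6 through 15.5 to 16.5% on poor diet. In 11 of 12 populations the share was larger on poor diet, in group means 15.7 ± 1.08 against 15.3 ± 1.20% in Control and 15.5 ± 0.72 against 14.2 ± 0.64% in Selected (SD, n = 6). No test was run on this share, and neither RpL24-like (0.01 ± 0.08) nor RpL24 (-0.08 ± 0.07) was called for diet.

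RpL7-like held 4.01% of its pair, from 2.9 to 4.95%, and 9 of 12 populations had the larger share on poor diet. Its group means were 3.51 and 3.77% in Control and 4.29 and 4.49% in Selected populations, on standard and poor diet in that order. All 6 Selected populations lay above the Control median of RpL7-like CPM, at 95.9 ± 6.53 against 83.6 ± 15.2 CPM, although the regimes overlapped. RpLP0-like held 1.78% of its pair, with group means between 1.72 and 1.89%.

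RpS15Ab (FBgn0033555, 2R 10821676-10822399) is the lesser copy of RpS15Aa, and the pair had the largest positive and the largest negative regime values apart from RpS5b. The share of RpS15Ab in the pair was 1.96 ± 0.40% in Control on standard, 2.13 ± 0.49% in Control on poor, 2.67 ± 0.37% in Selected on standard and 2.84 ± 0.40% in Selected on poor diet. Its level ran from 24.7 to 36.1, 21.9 to 41.8, 26.3 to 48.5 and 29.4 to 54.8 CPM in the same order. The highest level on each diet was that of S6, and without S6 the regime value fell from 0.26 to 0.13. RpS15Aa and RpS15Ab were not called, and paralogues can share reads in the quantification.

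RpS5b (FBgn0038277, 3R 14900432-14901563) varied far more between libraries than any other tested gene of the set, 347-fold from lowest to highest, against 10.7-fold for RpS19b and 2.5-fold for RpS15Ab. It is a copy of RpS5a that in flies is known for its role in egg formation. It ran from 1.17 through a median of 23.6 to 357 CPM in Control on standard, and from 1.03 through 71.7 to 156 CPM in Control on poor diet. In Selected populations it ran from 1.77 through 216 to 339 CPM on standard and from 9.74 through 176 to 237 CPM on poor diet. High and low libraries occurred in all 4 groups. Diet libraries of 1 population could lie far apart, as in S6, with 1.77 CPM on standard and 228 CPM on poor diet, while C2 was near 1 CPM on both.

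RpS5b followed germline markers. Over 12 population means of log2 CPM its level correlated with the germline and oocyte score, the mean log2 CPM of these markers, at r = 0.98 (permutation p = 1e-05, the smallest that 100000 resamples can give, adjusted p = 2e-05) and Spearman's rho = 0.94 (permutation p = 4e-05, adjusted p = 8e-05). Without C2 and S1, the populations farthest from the median score, r was 0.96, and within regimes it was 0.98 over 6 Control and 0.96 over 6 Selected populations. These 2 relations were the ones computed of 4 planned, since RpL22-like and RpL10Aa were detected in too few libraries. For RpS19b, a copy of RpS19a also known from the fly ovary, r was 0.17 (permutation p = 0.613, adjusted p = 0.613) and rho 0.08 (p = 0.803), at levels of 0.103 to 1.1 CPM.

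The germline markers themselves had positive regime values in 31 of 31 tested genes, with a median log2 fold change of 0.90 and a median SE of 0.76. Of these genes 0 were called and 0 had an unadjusted edgeR p below 0.05. They were measured in the same pools, so the 31 are not 31 separate observations. The summed level of these markers ran from 378 to 2861 CPM in Control and from 307 to 3433 CPM in Selected populations on standard diet, and from 418 to 1323 and 527 to 1964 CPM on poor diet. In the fit with marker scores as covariates the regime value of RpS5b was 1.06 (edgeR adjusted p = 0.541). That fit set the summed counts of both libraries of a population against the mean of their log2 scores. Where the libraries differ widely, as in S6, the sum follows the higher library and the mean score does not. The fit therefore cannot decide the part of germline markers in the regime value of RpS5b, which was not tested otherwise.

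**Figure D5:**
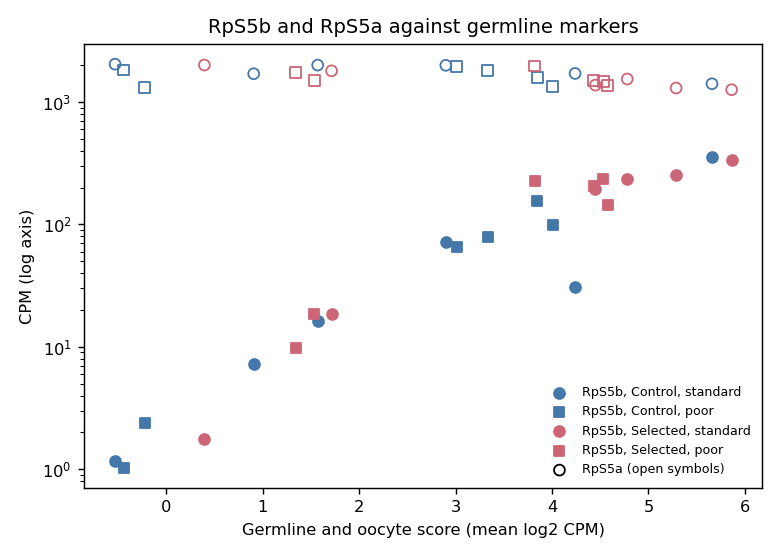
CPM of RpS5b (filled) and RpS5a (open) on a log axis against the germline and oocyte score, the mean log2 CPM of the marker genes, in 24 libraries by regime (colour) and diet (shape). RpS5b rises from 1.03 to 357 CPM along the score, while RpS5a spans 1260 to 2039 CPM. RpS5a is lowest in S1 on standard diet, which has the highest score (5.86), and highest in C2 on standard diet, which has the lowest (-0.53). C3 on poor diet, with a score of -0.22, has only 1311 CPM of RpS5a. The relation of RpS5a to the score was not tested.

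As a share of the S5 pair, RpS5b held 6.76% of counts on average, from 0.0564% in C2 on poor diet to 21.2%. Group medians were 1.29 and 3.70% in Control and 12.9 and 9.95% in Selected populations, on standard and poor diet in that order, with ranges that overlap. RpS5a, which carried the rest, had a median of 1643 CPM, and its group medians were 1854 and 1691 CPM in Control and 1459 and 1499 CPM in Selected populations, in the same order.

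Genes around the ribosome were looked up in 5 lists, chosen with earlier results of these data known. For diet, 0 of 29 initiation factors, 0 of 11 elongation and release factors, 0 of 46 genes of ribosome biogenesis and RNA polymerase I, and 0 of 6 genes of the response to ribosomal protein deficiency were called. Elongation and release factors had negative values in 10 of 11 genes with a median of -0.08, the same as that of the ribosomal proteins, initiation factors a median of -0.00 and biogenesis genes one of -0.06. Named by smallest p, pAbp (0.20 ± 0.07, edgeR adjusted p = 0.178), eRF3 (-0.11 ± 0.07, adjusted p = 0.396) and Ns2 (0.09 ± 0.05, adjusted p = 0.338) did not pass, nor did Gadd45 (0.47 ± 0.11, adjusted p = 0.0721).

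Growth regulators upstream of ribosome production were the list with calls. Of 21 genes 3 rose on poor larval diet, 0 fell and 18 did not pass, where 0.864% of all genes rose. They were the insulin receptor InR (0.57 ± 0.10, edgeR adjusted p = 0.0232), REPTOR (0.37 ± 0.07, adjusted p = 0.0375), a transcription factor held back by TOR, and Myc (0.39 ± 0.09, adjusted p = 0.0487). Their direction was the same in every alternative run, but the calls were not stable. InR passed in 16 of 18 alternatives (adjusted p 8.62e-06 to 0.0618) and not without S1 or without S5. REPTOR passed in 8 of 19 (0.000521 to 0.0924) and Myc in 5 of 19 (0.00144 to 0.122), and with a population left out each of these passed only without C5 or without C6. Over all genes 3 were called for diet without S1, 4 without S5 and 21 without the population block. The smaller summed level of fat body genes in each of the 12 poor-diet libraries stands beside these calls too, although 7 of these 16 genes had positive diet values. The part of this sum in the calls was not tested. Among the 85 narrow diet intervals of ribosomal protein genes the highest upper bound was 0.22, and the relation of these genes to Myc was not tested.

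For regime, 0 genes of the 5 lists were called. Biogenesis genes had positive values in 34 of 46 with a median of 0.10, and elongation and release factors a median of -0.09. The smallest p-values belonged to Irbp18 (-0.32 ± 0.10, edgeR adjusted p = 0.272), Non1 (-0.36 ± 0.13, adjusted p = 0.325) and eIF5B (0.26 ± 0.10, adjusted p = 0.364). Xrp1, which forms a dimer with Irbp18 and is known from flies as the mediator of the response to ribosomal protein loss, had -0.38 ± 0.16 (adjusted p = 0.443). Beside the biogenesis median stands the germline list, with 31 of 31 positive regime values and 0 called. The part of germline markers in the biogenesis median was not tested. Hemocyte markers went the other way, with negative regime values in 16 of 16 genes, a median of -0.39 and 0 called.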

How the data were processed

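The authors ran kallisto 0.46.2 on build BDGP6 and used limma and edgeR, per the submitters' processing notes. Per the file headers, each deposited library table holds estimated counts, fractional and not normalized, and TPM per transcript. A deposited table of the series holds log2 CPM for 8746 genes, which entered only as an alternative. Libraries were single reads of 150 bp from 2 lanes. Depth leaves counting error mainly in genes near 1 CPM.

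Of 30944 transcripts, 30811 were joined to annotation BDGP6.54 (release 115); the others held 0.282% of counts on average and at most 0.391% and were dropped. Gene values are rounded sums of estimated counts. Tests used edgeR 4.0.16 in R 4.3.3 (TMM, filterByExpr over the 4 groups, 10184 genes kept, quasi-likelihood F test, Benjamini-Hochberg adjusted p below 0.05). Diet was fitted on 24 libraries with population as a block and the interaction was added to that fit. Regime compared the sums of a population's libraries, 6 against 6, so the population is the replicate. Log2 CPM used a prior count of 2, and each SE is the fold change divided by the root of F. No set test was run. The diet and regime fits were also run on simulated counts. These were drawn independently per gene, without population effects or shared movement, so that run says nothing about such features. Alternatives used DESeq2 1.42.0, limma 3.58.1, other scalings, filters and covariates, and left out each population.

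Both libraries of a population are paired by the labels, and their deviations from group means correlated at 0.22 on average, from -0.23 to 0.69. The labels state no pairing of populations of the same number in both regimes, and none was used in the main fits. Their deviations correlated at -0.15 on average. The highest correlation between any 2 libraries was 0.978, so none was a duplicate.

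Members, gene lists and tests were chosen with earlier results of these data known. Named are members of paralogue families, the 5 highest and 5 lowest by mean TPM, the 5 highest and 5 lowest values by diet and by regime, the role genes RpLP0, RpLP1, RpLP2, sta, RpL40, RpS27A and RpS6, and listed genes of smallest p. RpL19, RpS7 and RpL13A (closest to the common movement) and RpL11 were named after their values were seen or as background. Some listed symbols had no match in the annotation (eIF5A, Taf1B, Nol9, Nop53, Tor and max among the pathway genes) and were not analysed here. Of the genes analysed, 1 is counted but not reported by name here. No sequences are shown, since no sequence table was used here.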

Additional observations from a re-analysis of the deposited data

Results flagged for a closer look

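Among 160 sets of 6 libraries, 40 values in each of 4 groups, 2 had 1 library far from the others by Dixon's criterion at 95%, where chance gives about 8. RpS19a, the main copy of its pair, was at 1330 CPM in S6 on poor diet, and the next library of that group, S3 on poor diet, was at 960 CPM. S6 on poor diet was the library in which 86 of 87 tested ribosomal protein genes lay above their own mean. RpS19b was at 0.928 CPM in C1 on poor diet, and the next library of that group, C3 on poor diet, was at 0.438 CPM. At such levels the value rests on few counts, the highest count of RpS19b in any library being 31.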

How the results depend on the processing

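Under the 19 alternative settings run for diet, the 20 for regime and the 19 for the interaction, 0 ribosomal protein genes were called, and the lowest adjusted p of any of them was 0.157. The median log2 fold change kept its sign with 1 exception: with germline and midgut scores as covariates the regime median was 0.0247 in place of -0.0415, and the cause was not tested. Leaving out 1 population at a time gave medians of -0.1093 (without C6) to -0.0335 (without C5) for diet, -0.0881 (without S6) to -0.0095 (without S1) for regime and 0.08 (without C5) to 0.2455 (without C6) for the interaction. Of 521 pairs of a named gene and an alternative, 504 kept their direction and 17 changed sign, all of them near 0 in the diet comparison when a population was left out. These were RpL24-like (-0.0136 to 0.0676), RpL38 (-0.0054 to 0.0905), RpL7-like (-0.0089 to 0.0609), RpS15Ab (-0.0101 to 0.0711) and RpS19b (-0.1436 to 0.2425). The number of positive diet values ran from 2 to 16 of 87 and that of positive regime values from 6 to 36 when a population was left out. With a replicate block by population number, a pairing that the labels do not state, the regime median was -0.0461 and 0 genes of the set were called. Without the replicate block the diet median was -0.0704 and the interaction median 0.1526. Counts of calls over all genes moved more: diet calls (88 higher and 27 lower) became 548 with DESeq2, 409 with marker scores as covariates and 21 without the block, from 3 to 139 when a population was left out, and 3 by regime became 36 without C4, 221 with DESeq2 and 153 in limma when each population was a random effect. The interaction gave 0 and, with DESeq2, 1. Depth limits RpS19b and the 6 genes near 0, and RpS5b is limited by its spread between libraries.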
